A study of Mus musculus with 14 samples.

Results

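The HoxC cluster was followed in early mouse forelimb buds that carry or lack *Smad4* in their mesenchyme. Its 9 genes, *Hoxc4*, *Hoxc5*, *Hoxc6*, *Hoxc8*, *Hoxc9*, *Hoxc10*, *Hoxc11*, *Hoxc12* and *Hoxc13*, were taken by their gene symbol from count tables that hold 23284 symbols each, and all 9 symbols were found. Poly-A RNA was sequenced from 14 samples, each made of both forelimb buds of 1 embryo of the NMRI strain. At E10.0 (30 somites) and again at E10.5 (35 somites), 3 wild-type and 4 mutant embryos were analysed. Mutant embryos were Smad4Δ/Δc PrxCreT/+, which means that 1 *Smad4* allele was deleted throughout and the floxed allele was recombined by the *Prrx1*-Cre transgene. Embryos called wild type were Smad4+/+ PrxCreT/+ and therefore carried the same transgene. *Prrx1*-Cre acts in the limb bud mesenchyme, so the ectoderm, blood vessels and blood cells in these samples did not lose the floxed allele.

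Hox genes encode homeodomain transcription factors that lie in 4 clusters, HoxA to HoxD, and genes with the same number in different clusters are called paralogs. Genes at one end of a cluster (low numbers) are active early and far towards the head, and genes at the other end (high numbers) are active later and further towards the tail, an order known as collinearity. In limb buds the HoxA and HoxD genes pattern the proximodistal and anteroposterior axes, while HoxC genes are best known for the body axis, for motor neurons and for the hindlimb. SMAD4 is the shared partner of the receptor-activated SMADs that carry BMP and TGFβ signals into the nucleus.

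Counted reads on genes ranged from 34066930 to 61691258 over the samples. *Smad4* stood at 152 to 169 CPM (reads of a gene scaled by library size) in the 6 wild-type samples and at 32.9 to 46.0 CPM in the 8 mutant samples, so that every sample matched its label. All CPM values here are scaled with TMM normalisation factors. The 6 markers of limb mesenchyme, among them *Prrx1* and *Tbx5*, were all detected, and their sum was lower in every mutant than in every wild-type embryo, at 1067 to 1271 against 1334 to 1541 CPM at E10.0 and at 1191 to 1276 against 1489 to 1546 CPM at E10.5. Of the hindlimb genes, *Pitx1* stayed at or below 0.191 CPM, and *Tbx4* was at 1.51 to 4.70 CPM at E10.0 and at 6.61 to 15.99 CPM at E10.5. Reads of the ribosomal precursor *Rn45s* made up 1.72 to 8.05% of the counts in mutant replicates 4 and 5 of both stages and 0.151 to 0.478% in the other 10 samples. Since the buds were sequenced whole, fewer cells of a type and less RNA per cell cannot be told apart in any value below.

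All 9 genes lie on the plus strand of chromosome 15 in the genome build of the count tables (mm9, NCBIM37). The annotation (GENCODE M1) places *Hoxc13* at chr15:102751534-102759245 at the 5′ end of the cluster and *Hoxc4* at chr15:102849367-102867274 at the 3′ end. Between them follow, in this order, *Hoxc12* (chr15:102767188-102769040), *Hoxc11* (chr15:102784858-102788139), *Hoxc10* (chr15:102797227-102802324), *Hoxc9* (chr15:102806870-102815530), *Hoxc8* (chr15:102821053-102824698), *Hoxc6* (chr15:102828688-102842312) and *Hoxc5* (chr15:102844246-102847860). No exon is shared between members. The noncoding *Gm20398* overlaps exons of *Hoxc10* (8.7% of the exonic bases) and *Hoxc5* (15.4%), and its symbol is not among those counted. *Mir196a-2* lies between *Hoxc10* and *Hoxc9* and *Mir615* inside *Hoxc5*, and both were listed at 0 reads in every sample of this poly-A library type.

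The cluster was read unevenly. *Hoxc4*, *Hoxc5* and *Hoxc6*, the 3 genes nearest its 3′ end, together took between 77.5 and 85.6% of the HoxC reads of every embryo. Summed over the 9 genes, the level was 104 ± 11.95 CPM (SD, n = 3) in wild-type buds at E10.0 and 102 ± 12.6 CPM (SD, n = 4) in mutant buds. At E10.5 it was 88.0 ± 5.24 CPM (SD, n = 3) and 75.4 ± 8.48 CPM (SD, n = 4), respectively. Every mutant embryo at E10.5, at 62.8, 81.0, 78.2 and 79.6 CPM, was below every wild-type embryo of that stage, at 87.3, 83.2 and 93.6 CPM. At the same stage 4 of the 6 mesenchyme markers were called lower in mutants, and 5 of 6 at E10.0, and their part in the HoxC sums was not tested.

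Levels of different genes can be compared only per length. Divided by the length of the transcript with the longest coding sequence, the order of the means in wild-type buds at E10.0 was *Hoxc6* (17.2 ± 1.66 CPM per kb; SD, n = 3), *Hoxc5* (12.2 ± 0.873), *Hoxc4* (10.6 ± 1.21), *Hoxc8* (6.39 ± 1.63), *Hoxc9* (1.10 ± 0.290), *Hoxc13* (0.332 ± 0.0956) and *Hoxc10* (0.271 ± 0.122). The sample ranges of *Hoxc5* and *Hoxc4* overlapped, as did those of *Hoxc13* and *Hoxc10*, and the other neighbours were apart. The same order of means held in the 3 other groups. *Hoxc8* was above *Hoxc9* in 14 of 14 embryos and *Hoxc9* above *Hoxc13* in 13 of 14. The order of the 2 highest genes depended on the length used: over all annotated exons, *Hoxc5* (12.2 ± 0.873 CPM per kb) was above *Hoxc6* (11.54 ± 1.11), and they did not differ beyond their spread. The level per kb did not fall evenly along the cluster, since *Hoxc11* and *Hoxc12* were at or near 0 between *Hoxc10* and *Hoxc13*, as the plot of levels along the cluster shows.

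**Figure D1:**
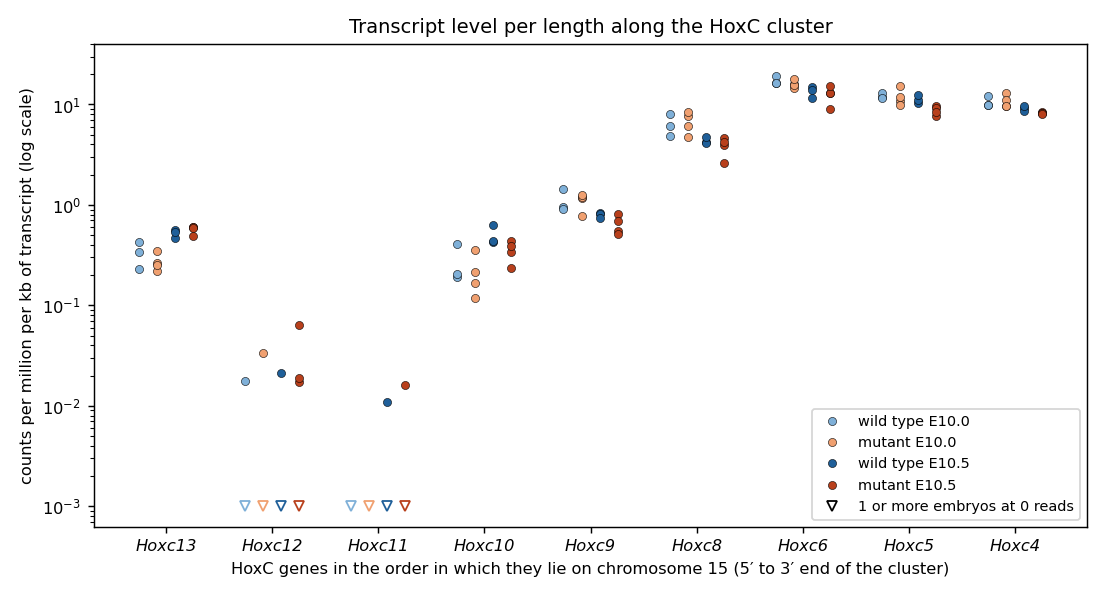
Level of each HoxC gene in CPM per kb of transcript (log axis), with genes in their order along the cluster and 1 point per embryo in each of the 4 groups. Open triangles at the lower edge mark groups in which at least 1 embryo had 0 reads, which was the case only for *Hoxc12* and *Hoxc11*; *Hoxc13*, at the outer 5′ end, lay between 0.222 and 0.603 CPM per kb.

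Of the 9 genes, 6 reached 1 CPM in at least 3 samples and were tested together with 12393 genes in all: *Hoxc4*, *Hoxc5*, *Hoxc6*, *Hoxc8*, *Hoxc9* and *Hoxc13*. *Hoxc10*, *Hoxc11* and *Hoxc12* did not. The first 5 were above 1 CPM in all 14 samples. *Hoxc13* passed through E10.5, where all 7 embryos reached 1 CPM, against 1 of 7 at E10.0, so that its entry into the tested set was tied to its higher level at E10.5. A gene was called changed in edgeR's exact test where its false discovery rate (FDR, the adjusted P) did not exceed 0.1 and the change was 1.2-fold or more.

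The first question was whether loss of *Smad4* changes HoxC levels. At E10.0 none of the 6 tested genes was called, against 6.61% of all genes, and the number was also 0 with edgeR's quasi-likelihood test and with DESeq2. None of the 6 reached an unadjusted P of 0.05, and the groups overlapped in all 6, whereas in 17.8% of all genes they did not overlap. The log2 fold changes lay between -0.28 (*Hoxc13*) and 0.08 (*Hoxc8*), with a median of -0.01 against -0.02 over all genes. For *Hoxc5*, the 95% interval of the change ran from -0.30 to 0.25 on the log2 scale, and for *Hoxc8*, the more variable gene, from -0.37 to 0.53.

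At E10.5 the mutant means were lower for 5 of the 6 genes and higher for *Hoxc13*, and again none was called by the exact test, the quasi-likelihood test or DESeq2, against 3.73% of all genes. One gene, *Hoxc5*, had an unadjusted P under 0.05 in the exact test. The median log2 fold change was -0.17, against -0.01 over all genes. *Hoxc4* and *Hoxc5* were lower in all 4 mutant embryos than in all 3 wild-type embryos, a separation seen in 13.0% of all genes. The sum of the mesenchyme markers, which includes the SMAD4 target genes *Prrx2* and *Lhx2*, separated the genotypes in the same direction.

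The second question was how HoxC levels change as the bud grows out between E10.0 and E10.5. In mutant buds the 5 genes that were above 1 CPM in all samples, *Hoxc4*, *Hoxc5*, *Hoxc6*, *Hoxc8* and *Hoxc9*, fell, where 8.40% of all genes were called lower. *Hoxc13* rose, where 10.8% were called higher (19.2% in either direction), but the filter on low counts favoured that direction for it. The quasi-likelihood test and DESeq2 made the same 6 calls. Of the 6 tested genes, the stages did not overlap in 3 that fell (*Hoxc4*, *Hoxc5* and *Hoxc8*) and in 1 that rose (*Hoxc13*). Over all genes, 20.0% did not overlap in either direction. This separation comes from the same values as the calls and is no separate support for them.

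In wild-type buds the same 6 genes had changes of the same sign, but none was called by the exact test, although 3 (*Hoxc6*, *Hoxc8* and *Hoxc13*) had an unadjusted P under 0.05. The background was 10.1% of all genes called, 4.74% lower and 5.39% higher. The quasi-likelihood test called none and DESeq2 called 1, *Hoxc13* (adjusted P = 0.0994). Of the 6 tested genes, the wild-type stages did not overlap in 4 with lower means, all of these but *Hoxc5*, and in 1 with a higher mean (*Hoxc13*). Over all genes, 37.0% did not overlap in either direction, with 3 embryos against 3.

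A change that passes the threshold in one genotype and not in the other does not show that the genotypes differ, so the difference itself was tested. The interaction of stage and genotype was called for none of the 6 genes in the quasi-likelihood test, against 0.186% of all genes, and none had an unadjusted P under 0.05. DESeq2 called none either. The smallest P was that of *Hoxc5* (adjusted P = 0.936), whose stage change was lower in mutants by 0.35 on the log2 scale with a 95% interval from -0.74 to 0.04. For *Hoxc6* the estimate was 0.00, with an interval from -0.43 to 0.44.

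**Figure D2:**
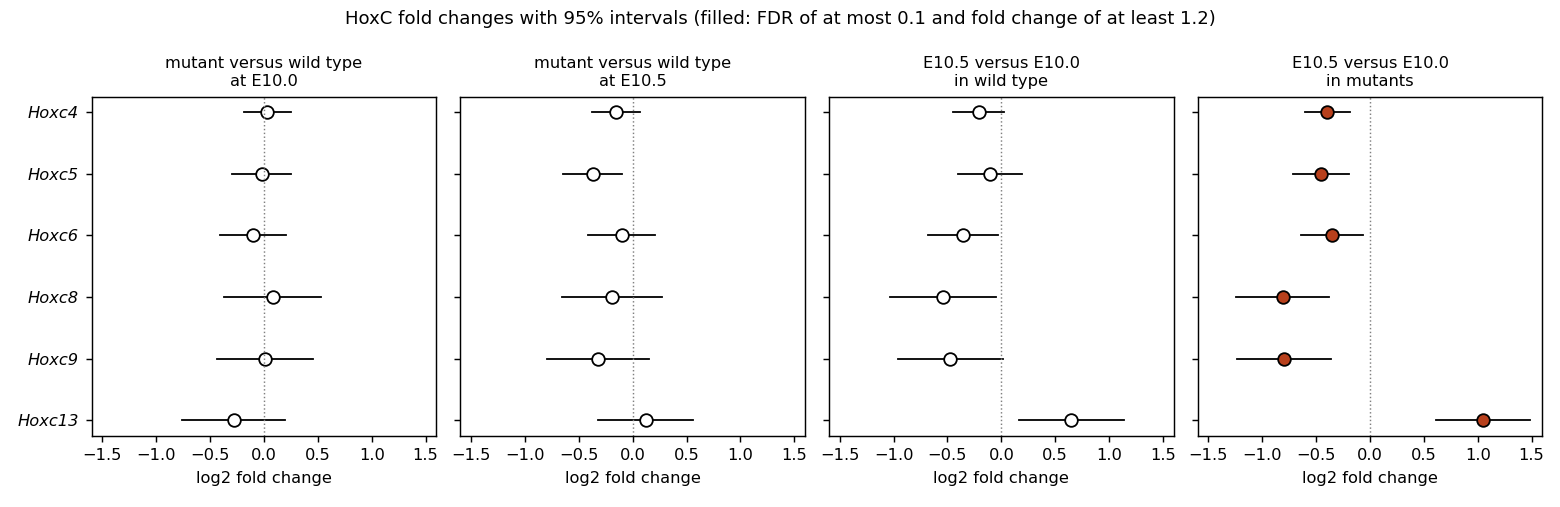
Log2 fold changes of the 6 tested HoxC genes in 4 comparisons (1 panel each), where lines are 95% intervals from the quasi-likelihood fit and filled points are genes called by the exact test. Points are filled only in the panel of the stage change in mutants, where *Hoxc8* and *Hoxc9* lie near -0.80 and *Hoxc13* at 1.05.

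*Hoxc4* and *Hoxc5* form the 3′ end of the cluster, and in the embryo both act at cervical and brachial levels, *Hoxc5* among other places in motor neurons of the phrenic nerve. *Hoxc4* stood at 19.6, 23.7 and 19.5 CPM in wild-type replicates 1, 2 and 3 at E10.0 and at 19.2, 25.6, 21.7 and 19.0 CPM in mutant replicates 1, 3, 4 and 5. At E10.5 it was at 18.1, 17.2 and 19.1 CPM in wild-type replicates 1, 2 and 3 and at 16.5, 16.4, 16.4 and 15.7 CPM in mutant replicates 1, 2, 4 and 5. The mutant embryos at E10.5 were nearly identical and lay below all 10 other samples. The fall in mutants amounted to -0.40 on the log2 scale (edgeR exact test, adjusted P = 0.00375), and the wild-type change was -0.21 (exact test, adjusted P = 0.348), or -0.11 without wild-type replicate 2 of E10.0 (adjusted P = 0.785).

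*Hoxc5* was the member with the most reads, 754 to 2574 per sample. It was at 34.6, 38.4 and 33.5 CPM in wild-type buds at E10.0 and at 31.6, 44.6, 35.0 and 28.6 CPM in mutant buds. At E10.5, wild-type buds stood at 30.2, 32.7 and 36.3 CPM and mutant buds at 22.2, 28.5, 26.9 and 24.6 CPM. Mutant replicate 3 at E10.0 was the highest of all 14 samples, and the 4 mutant embryos at E10.5 were the lowest, just under mutant replicate 5 at E10.0. The fall in mutants was -0.45 (exact test, adjusted P = 0.00292), while the wild-type change was -0.10 (exact test, adjusted P = 0.737). The latter ranged from -0.18 without wild-type replicate 3 of E10.5 to -0.04 without replicate 1 of that stage or replicate 2 of E10.0.

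Between the genotypes at E10.5, *Hoxc5* was 0.773 times as high in mutants, a log2 fold change of -0.37 that missed the threshold (exact test, adjusted P = 0.124, unadjusted P = 0.0051). This was the member nearest to a call between genotypes. It passed when the E10.5 groups were fitted apart from the E10.0 groups (adjusted P = 0.0407) and when mutant replicate 2 of E10.5 was left out (adjusted P = 0.0831). With another sample left out, the adjusted P was as high as 0.493.

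*Hoxc6* and *Hoxc8* lie in the middle of the cluster, and along the body they mark the level of the forelimb, *Hoxc6* in brachial motor columns and *Hoxc8* at the passage from the brachial to the thoracic region. *Hoxc6* was at 27.2, 32.1 and 27.3 CPM in wild-type buds at E10.0 and at 24.3, 26.6, 26.4 and 30.1 CPM in mutant buds. At E10.5 it was at 25.2, 19.3 and 23.2 CPM in wild-type buds and at 15.1, 21.9, 21.7 and 25.6 CPM in mutant buds. The mutant stages overlapped, and the lowest sample, mutant replicate 1 at E10.5, lay well apart from the rest of its group. The fall was of like size in both genotypes, -0.35 in mutants (exact test, adjusted P = 0.0492) and -0.36 in wild-type buds (exact test, adjusted P = 0.150).

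Of the 6 calls in mutants, that of *Hoxc6* was the least firm. It was lost without mutant replicate 5 of E10.0 (log2 fold change -0.29, adjusted P = 0.160) and without mutant replicate 1 of E10.5 (-0.22, adjusted P = 0.206). The other 5 calls held with each sample left out in turn.

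*Hoxc8* varied widely between embryos at E10.0. Wild-type buds were at 14.1, 18.7 and 11.3 CPM and mutant buds at 17.6, 19.5, 13.9 and 10.9 CPM. At E10.5 the values were 9.80, 9.49 and 11.03 CPM in wild-type buds and 6.03, 10.6, 9.09 and 9.77 CPM in mutant buds. Each E10.5 embryo was thus below each E10.0 embryo of its own genotype. In mutants the level fell to 0.572 times the E10.0 level, a log2 change of -0.81 (exact test, adjusted P = 4.87e-04). In wild-type buds the change was -0.54 (exact test, adjusted P = 0.120). It depended on single wild-type embryos of E10.0, being -0.70 without replicate 3 (adjusted P = 0.0551, a call) and -0.33 without replicate 2 (adjusted P = 0.574).

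*Hoxc8* is the member with letters that match the miRNA of its own cluster. *Mir196a-2* encodes miR-196a-5p, a miRNA known to act on Hox transcripts. Its mature sequence from RefSeq (GRCm38.p6), with the seed (bases 2 to 8) in capitals, and the 3 stretches of the *Hoxc8* 3′UTR that face it, with the 7 letters complementary to the seed in capitals, are as follows.
miR-196a-5p: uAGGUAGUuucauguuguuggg
Hoxc8 match at bases 135 to 141 of the 3′UTR: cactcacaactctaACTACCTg
Hoxc8 match at bases 892 to 898 of the 3′UTR: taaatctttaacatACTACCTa
Hoxc8 match at bases 1030 to 1036 of the 3′UTR: cagcgtattttatcACTACCTa
None of the other 8 members held the match ACTACCT in its 3′UTR, and 7 of 30 HoxA, HoxB and HoxD genes did, with *Hoxa7* holding 4. Over 14294 genes with a 3′UTR as long as those of the members (92 to 1987 bases), 3.06% held it. The mature miRNA is too short for this library type and was not measured, so the matches describe the sequence alone.

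*Hoxc9* lies next to *Hoxc8* on the 5′ side and belongs to the paralog group that in the forelimb field helps to set the posterior domain in which *Shh* starts. Its reads were 0.116 to 0.218 times those of *Hoxc8* in the same embryo, with 51 to 167 reads per sample. Wild-type buds were at 2.27, 3.41 and 2.18 CPM at E10.0 and at 1.97, 1.94 and 1.75 CPM at E10.5. Mutant buds were at 2.81, 2.87, 3.00 and 1.84 CPM at E10.0 and at 1.32, 1.23, 1.92 and 1.66 CPM at E10.5. Mutant replicate 5 of E10.0 was the only mutant embryo of its stage that fell within the E10.5 range. The fall in mutants was -0.80 (exact test, adjusted P = 0.0028) and the change in wild-type buds was -0.47 (exact test, adjusted P = 0.241), or -0.24 without wild-type replicate 2 of E10.0 (adjusted P = 0.750).

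*Hoxc13*, at the 5′ end, is known for its role in hair and nails, where it acts on keratin genes. It was the tested member that rose. In wild-type buds it was at 1.04, 0.838 and 0.572 CPM at E10.0 and at 1.15, 1.37 and 1.33 CPM at E10.5. In mutant buds it was at 0.650, 0.866, 0.546 and 0.615 CPM at E10.0 and at 1.21, 1.48, 1.47 and 1.47 CPM at E10.5. All 7 embryos at E10.5 were above all 7 at E10.0, although these levels rest on 20 to 76 reads per sample. The level in mutants rose to 2.06 times that at E10.0, a log2 change of 1.04 (exact test, adjusted P = 1.16e-04). Since the gene passed the filter on low counts through the E10.5 samples, the test was also run without that filter, and the change was 1.03 (adjusted P = 1.08e-04). In wild-type buds the change was 0.65 (exact test, adjusted P = 0.113), and it depended on single wild-type embryos of E10.0. It was 0.86 without replicate 1 (adjusted P = 0.0547, a call) and 0.45 without replicate 3 (adjusted P = 0.425).

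The 250 bases before the *Hoxc13* start are shown since this was the tested member that rose (NCBIM37, chr15:102751284-102751533, plus strand, CG in capitals).
Hoxc13 upstream: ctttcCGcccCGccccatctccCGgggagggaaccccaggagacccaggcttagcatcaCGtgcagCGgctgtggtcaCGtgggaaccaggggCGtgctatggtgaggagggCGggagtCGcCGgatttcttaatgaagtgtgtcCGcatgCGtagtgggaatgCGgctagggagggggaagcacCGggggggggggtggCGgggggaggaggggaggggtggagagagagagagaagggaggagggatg
This window holds 15 CG dinucleotides and 66.8% G or C, where the medians over 22589 promoter windows of the same length were 9 and 54.4%. For *Hoxc4*, *Hoxc6* and *Hoxc9* the start used is that of the transcript with the longest coding sequence, which begins inside the annotated gene.

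This window and those of *Hoxc4*, *Hoxc5*, *Hoxc6*, *Hoxc9*, *Hoxc10*, *Hoxc11* and *Hoxc12* were searched on both strands for short motifs of factors that work with Hox proteins or SMADs. The Hox-Pbx motif TGATTNAT was in 2.50% of all windows, the Meis/Prep motif TGACAG in 15.05%, the GC-rich SMAD motif GGCGCC in 11.7% and the palindromic SMAD motif GTCTAGAC in 0.151%. None of these 4 was found in any of these 8 windows. The TATA box letters TATAAA, present in 12.6% of all windows, were found in that of *Hoxc12* alone. There they lay on the minus strand, 163 to 158 bases before the start.

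*Hoxc10*, *Hoxc11* and *Hoxc12* are genes of the posterior trunk and the hindlimb. *Hoxc10* was read in every embryo, with 13 to 62 reads. It was at 0.786, 0.368 and 0.396 CPM in wild-type buds and 0.684, 0.225, 0.410 and 0.320 CPM in mutant buds at E10.0. At E10.5 it was at 0.817, 1.22 and 0.832 CPM in wild-type buds and 0.445, 0.839, 0.651 and 0.749 CPM in mutant buds. The later stage was higher in all 3 wild-type embryos than in the earlier ones, and in mutants the stages overlapped. In a test without the filter on low counts the log2 change with stage was 0.88 in wild-type buds (exact test, adjusted P = 0.216) and 0.68 in mutants (exact test, adjusted P = 0.247), so neither was called.

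*Hoxc11* had 2 reads in all 14 samples together, 1 each in 1 wild-type and 1 mutant embryo at E10.5. *Hoxc12* had 8 reads in all, at most 2 in any sample, and none in 8 samples. A count of 0 allows up to 3 reads, which is 0.0513 to 0.0977 CPM depending on the sample and covers counting error only. No fold was formed for these 2 genes.

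**Figure D3:**
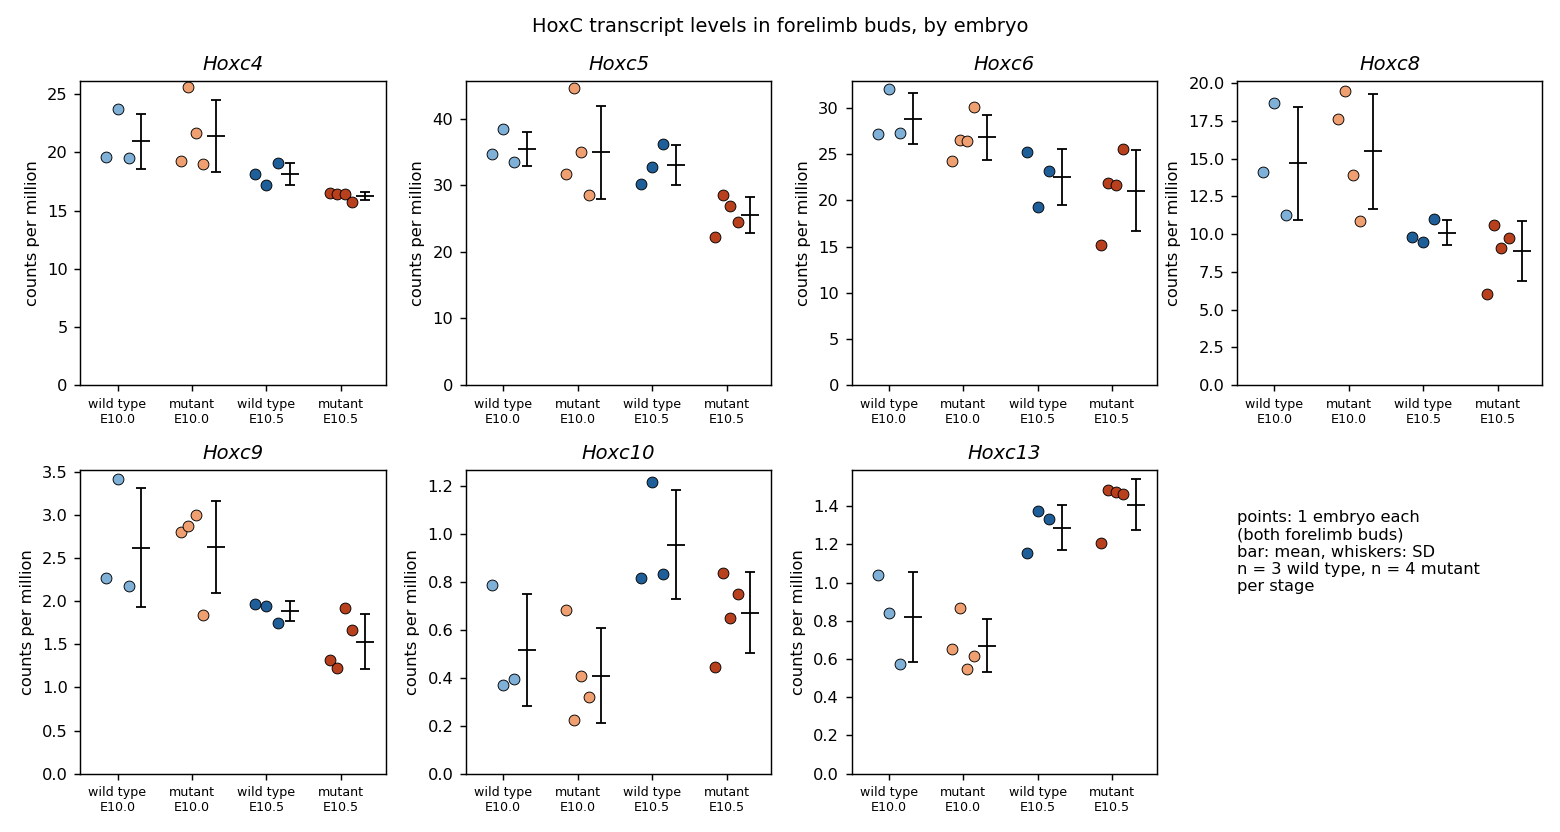
CPM of 7 HoxC genes in each embryo (points) with the mean and SD of the group (bar and whiskers), n = 3 wild type and n = 4 mutant per stage, each axis starting at 0. *Hoxc4*, *Hoxc5*, *Hoxc6*, *Hoxc8* and *Hoxc9* have lower means at E10.5 in both genotypes, whereas *Hoxc10* and *Hoxc13* have higher means.

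Some embryos were the highest or lowest of their group in several members. At E10.0, wild-type replicate 2 was the highest of its group in 5 of the 6 tested genes and replicate 3 the lowest in 5. Among mutants, replicate 3 of E10.0 was the highest in 4 and replicate 5 the lowest in 4, and replicate 1 of E10.5 was the lowest in 4. *Hoxc6* departed from this, with mutant replicate 5 of E10.0 the highest of its group.

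An alternative fit left out the *Rn45s*-rich samples, whose part in the HoxC changes was not tested. With only the replicates numbered 1 to 3 (2 mutant embryos per stage), all 6 genes were called again in the exact test. The mutant embryos kept included replicate 3 of E10.0 and replicate 1 of E10.5, which were at the extremes of their groups in several members. The 5 falls were larger in this fit, with a log2 change of -1.15 for both *Hoxc8* and *Hoxc9* and of -0.59 for *Hoxc5*, and the rise of *Hoxc13* was smaller, at 0.83 (adjusted P = 0.0680). In wild-type buds this fit, which held the same 6 wild-type embryos, called 3 of the 6 genes: *Hoxc6*, *Hoxc8* and *Hoxc13*. Over all genes it called 1870 with stage in wild-type buds, against 1256 in the main fit. In mutants it called 2164 of all genes, against 2374.

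Some marker genes of other tissues were also called between the stages in mutants, where 8.40% of all genes were called lower and 10.8% higher. The lists are too short to set their counts against these shares. The part of these markers in the HoxC changes was not tested. Of 4 mesothelium markers, 3 were tested and 2, *Wt1* and *Upk3b*, fell, with the list summing to 12.9 to 24.2 CPM at E10.0 and 4.93 to 7.75 CPM at E10.5. In wild-type buds the same sum was 6.41 to 9.67 and 9.15 to 11.6 CPM, and *Wt1* rose. *Upk3b* was at 2.83 to 8.33 CPM in mutants at E10.0 and at most 0.624 CPM at E10.5, so the filter on low counts favoured its fall. Of 4 nephric markers only *Gata3* was tested, and it fell, the sum going from 3.17 to 4.69 CPM down to 1.86 to 2.44 CPM, with *Pax2*, *Pax8* and *Lhx1* below 0.2 CPM in the mean of every group. Of 7 tested somite and muscle markers (9 listed), 3 rose and 2 fell, and the sum was 126 to 138 and 177 to 201 CPM. The rise of this sum lay mainly in *Tbx18* (mean 67.8 to 129 CPM). *Pax1* (0.409 to 2.79 CPM) and *Myf5* (1.40 to 4.30 CPM) also rose, and *Meox1* (26.3 to 17.7 CPM) and *Pax3* (29.2 to 22.9 CPM) fell. Of the 9 markers of spinal cord and neurons, which use HoxC genes strongly, 3 were tested and 1 rose, and the sum stayed between 13.1 and 18.0 CPM over both mutant groups. No neural crest marker passed in mutants over stage (5 listed, 1 tested; sums of 10.9 to 15.3 CPM). Both tested macrophage markers rose (3 listed; 4.59 to 5.63 and 8.53 to 13.98 CPM), 1 of 4 endothelial markers fell, none of 4 erythroid markers passed, and of 7 ectoderm markers 1 rose and 1 fell. Of the 2 hindlimb markers only *Tbx4* was tested, and it rose (sums of 2.34 to 4.89 and 12.4 to 16.2 CPM).

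Paralogs in the other clusters give a scale for the HoxC changes, as the plot of the 4 clusters shows. HoxB genes fell most widely, 8 of 9 tested in wild-type buds and 8 of 9 in mutants, where 4.74% and 8.40% of all genes were called lower. *Hoxb8*, the closest HoxB relative of *Hoxc8*, fell by -1.16 in wild-type buds (exact test, adjusted P = 5.04e-09) and by -1.48 in mutants. *Hoxb9*, the paralog of *Hoxc9*, fell by -1.10 and -1.73. Summed over the cluster, HoxB went from 132 ± 22.6 CPM (SD, n = 3) to 82.2 ± 4.22 CPM (SD, n = 3) in wild-type buds and from 114 ± 20.1 to 68.2 ± 1.42 CPM (SD, n = 4 each) in mutants.

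Among HoxD genes, 3 of 9 rose in both genotypes, *Hoxd11*, *Hoxd12* and *Hoxd13*, and 2 fell in wild-type buds (*Hoxd8* and *Hoxd9*) and 3 in mutants. *Hoxd13*, which with *Hoxa13* builds the digits, rose by 0.62 in wild-type buds and by 0.67 in mutants, next to 0.65 and 1.04 for *Hoxc13*. *Hoxd8* fell by -0.48 and -0.46, next to -0.54 and -0.81 for *Hoxc8*. Of 11 HoxA genes, 1 rose and 1 fell in wild-type buds, and 3 rose and 3 fell in mutants. The shares over all genes were 5.39% higher and 4.74% lower in wild-type buds, and 10.8% higher and 8.40% lower in mutants. *Hoxa13* was at or below 0.274 CPM in every embryo at E10.0 and between 2.19 and 3.57 CPM at E10.5, and like *Hoxc13* it entered the tested set through the later stage. By sign alone, with many of the genes not called, every tested gene of paralog groups 4 to 9 had a negative stage change in both genotypes. The tested HoxA, HoxC and HoxD genes of groups 11 to 13 had a positive one. For *Hoxa13* and *Hoxc13* among them, the filter on low counts favoured that sign. *Hoxa10* was at 0.22 in wild-type buds (not called) and at 0.46 in mutants (called). *Hoxd10* was at -0.18 in wild-type buds and 0.02 in mutants, with neither called.

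**Figure D4:**
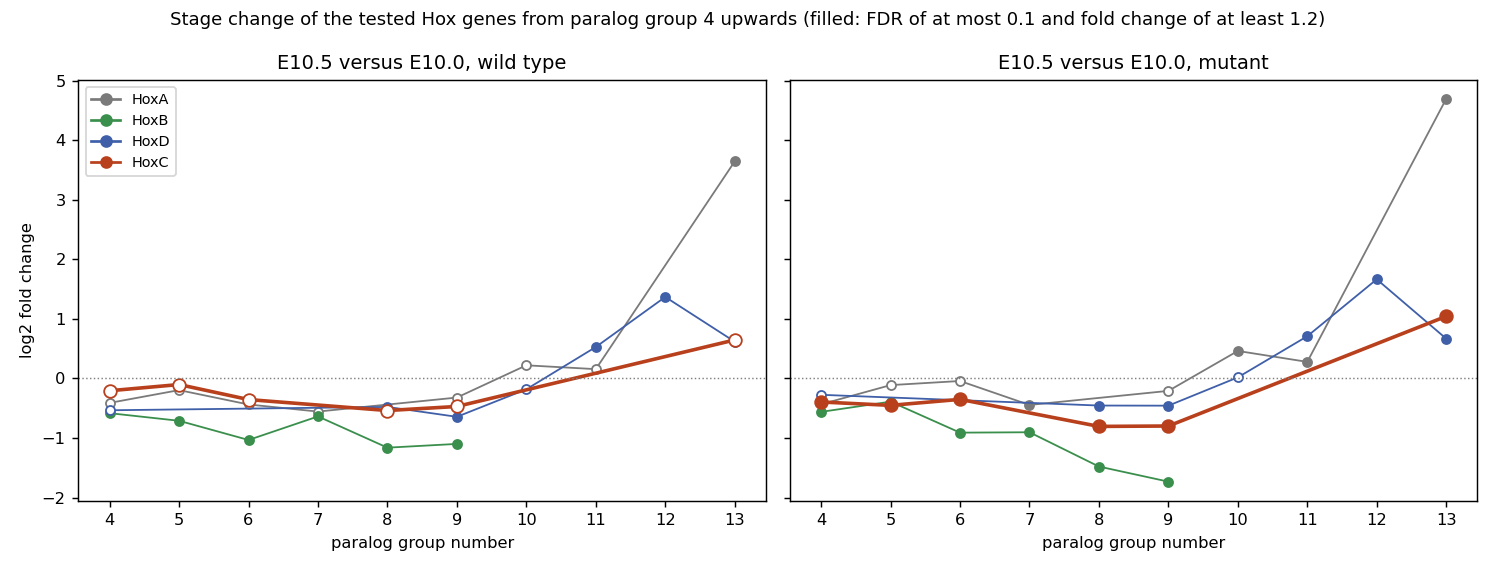
Log2 fold change from E10.0 to E10.5 of each tested Hox gene of paralog groups 4 to 13, the span of the HoxC cluster, by group number, with 1 line per cluster, wild type on the left and mutant on the right. Filled points are called genes; the HoxC line (red) runs from values near -0.4 at groups 4 to 6 in mutants to 1.04 at group 13, and the steep end of the HoxA line is *Hoxa13*, which was near 0 at E10.0.

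HoxC genes made up 10.9 ± 1.36% of all Hox counts at E10.0 and 10.1 ± 0.687% at E10.5 in wild-type buds (SD, n = 3 each). In mutants the share was 11.4 ± 1.67% and 8.33 ± 0.999% (SD, n = 4 each). The mutant values at E10.5 reached at most 9.07% and the wild-type values at least 9.29%. This share also depends on the other clusters. At E10.5 the mean HoxD sum was 363 CPM in wild-type and 424 CPM in mutant buds. HoxA stood at 342 and 339 CPM, and HoxB at 82.2 and 68.2 CPM.

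Between genotypes, 2 of the 29 tested HoxA, HoxB and HoxD genes were called at E10.0, where 6.61% of all genes were, and 3 at E10.5, where 3.73% were. *Hoxd13* was higher in mutants at E10.0 by 0.43 (exact test, adjusted P = 0.0312) and at E10.5 by 0.48 (exact test, adjusted P = 0.0114). *Hoxb5* was lower at E10.0 (-0.43), and *Hoxb8* (-0.59) and *Hoxa2* (-0.41) were lower at E10.5. The interaction was called for none of the 29.

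Hox proteins bind DNA together with TALE homeodomain proteins of the Meis, Pbx and Prep (Pknox) families. None of the 9 TALE genes was called over stage in wild-type buds, where 10.1% of all genes were. In mutants, where 19.2% of all genes were called, *Meis2* (-0.37) and *Meis3* (-1.07) fell. Their wild-type changes were -0.21 and -0.24. The interaction was called for neither (quasi-likelihood test, adjusted P = 0.950 and 0.518). At E10.5 *Meis3* was lower in mutants than in wild-type buds by -0.80, with 9.90 ± 0.178 CPM (SD, n = 3) in wild-type and 5.67 ± 0.493 CPM (SD, n = 4) in mutant buds.

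Among 13 genes known to act on Hox clusters, 11 were tested. With stage, 2 rose, 1 fell and 8 were not called in wild-type buds, where 10.1% of all genes were called. In mutants, where 19.2% were, 1 rose, 3 fell and 7 were not called. *Ezh2*, *Eed*, *Suz12* and *Ctcf* were called in neither. *Cdx1*, which encodes an activator of Hox genes in the early trunk, fell with stage in both genotypes, by -1.92 in wild-type buds and by -2.36 in mutants. *Aldh1a2*, which encodes an enzyme that makes retinoic acid, went in opposite directions. It rose from 5.29 ± 1.40 to 10.5 ± 2.50 CPM in wild-type buds (SD, n = 3 each) and fell from 25.5 ± 8.96 to 4.58 ± 1.004 CPM in mutants (SD, n = 4 each), and its interaction was called (quasi-likelihood test, adjusted P = 0.0033). The mesothelium markers *Wt1* and *Upk3b* had the same signs and a called interaction (quasi-likelihood test, adjusted P = 0.0190 and 0.0366), and *Krt19* had none. A link between these changes was not tested. *Cyp26b1*, whose product degrades retinoic acid, rose by 0.91 and 1.14. *Rarb*, a retinoic acid receptor gene that itself responds to retinoic acid, fell by -0.49 in mutants, and its change in wild-type buds was -0.29 (exact test, adjusted P = 0.160).

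The genes that flank the cluster were called about as often as all genes. Of the 5 nearest tested genes on each side, 10 in all, 1 fell in wild-type buds (10.1% of all genes called), and in mutants (19.2% called) 1 rose (*Calcoco1*, 0.34) and 1 fell (*D930007P13Rik*, -0.98), with a median log2 change of -0.05 in mutants over the 10 genes. *Calcoco1* lies 199 kb from the cluster and *D930007P13Rik* 86.2 kb.

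Genes whose levels were most like those of the 3 highest members were sought by Pearson correlation of log2(CPM + 1) over the 14 samples, which share 4 groups, so that a stage or genotype change in common raises the value. For *Hoxc4* they included *Cd320* (r = 0.933) and *Fam203a* (r = 0.931). For *Hoxc5* they included *Kcnq5* (r = 0.930) and *Gata3* (r = 0.921). For *Hoxc6* they were *Psmg3* (r = 0.920), *Psmb10* (r = 0.915) and *Mrpl46* (r = 0.904).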

How the data were processed

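Forelimb bud RNA of 14 embryos was sequenced in single reads of 50 cycles. The deposited values are raw counts of reads per gene symbol, which the authors made with TopHat2 2.0.13 on mm9 with refGene transcripts and HTSeq (unique reads, no strand; HTSeq version not given in the sources used here). Without strand, sense and antisense reads cannot be told apart.

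Counts were TMM-scaled in edgeR 4.0.16 (R 4.3.3). The 12393 genes that reached 1 CPM in 3 or more samples and lie outside chromosomes X, Y and M were kept. Dispersions were estimated over all 14 samples (prior degrees of freedom 10). Each pair of groups was compared with edgeR's exact test and the interaction with its quasi-likelihood F test, with Benjamini-Hochberg adjustment over all genes tested. Called genes had an adjusted P no higher than 0.1 and changed 1.2-fold or more, and for the interaction the adjusted P alone was used. Intervals (95%) came from the quasi-likelihood fit. CPM of untested genes used the same scaling. The exact test and the quasi-likelihood test were tried on simulated data for the comparisons of pairs of groups. The interaction, DESeq2 and the replicate block were not. Alternatives were DESeq2 1.42.0, the quasi-likelihood test, RLE size factors, no filter, chromosomes X, Y and M kept, groups fitted apart, replicates 1 to 3 only, a replicate block and leaving out each sample. Total counts of 34066930 to 61691258 reads per sample set the precision, and a count of 0 allows up to 3 reads.

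Replicates were single embryos of 1 group, and every pair of them differed beyond sampling noise. Same-numbered samples were compared by the correlation of their deviations from the group means. Across stages in mutants it was 0.572, 0.611 and 0.269 for replicates 1, 4 and 5, which by the rule used (each above 0.1) pairs them, although the labels do not say what the number marks. Mutant samples with different numbers lay between -0.587 and 0.383 across stages. The value of replicate 5 was therefore not particular to equal numbers, and the rule does not show that embryos were paired. In the other comparisons, same-numbered samples lay between -0.283 and 0.174.

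Named were all 9 members, and of the other listed genes mainly those that passed a test. For likeness, the 3 genes of highest Pearson correlation were named for each of the 3 members with the most reads. Some genes and sequences that these rules would name are not reported here. The members and gene lists were chosen with earlier results of these data known. Lengths, promoters and 3′UTRs are those of the transcript with the longest coding sequence (GENCODE M1, NCBIM37), an annotation other than the one counted on.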

Additional observations from a re-analysis of the deposited data

Results flagged for a closer look

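In 4 of 17 groups of 4 embryos examined, 1 HoxC value lay far from the rest (gap to the nearest value over the whole range above Dixon's 95% critical value). Chance gives this in about 1 of 20 groups of continuous values, a rate that does not apply to *Hoxc11* and *Hoxc12*, where a single embryo with any read meets it by construction. *Hoxc4* was lowest in mutant replicate 5 at E10.5, at 15.7 CPM (483 reads), though the whole group spans less than 1 CPM. *Hoxc13* was lowest in mutant replicate 1 at E10.5, at 1.21 CPM (68 reads). *Hoxc11* reached 0.0326 CPM in mutant replicate 5 at E10.5, which is 1 read, and *Hoxc12* 0.0346 CPM in mutant replicate 3 at E10.0, which is 2 reads. In both of these cases the other 3 embryos of the group were listed at 0, and no value exceeded the 3 reads that a count of 0 allows.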

How the results depend on the processing

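The 6 calls over stage in mutants were made under every alternative other than those that leave out 1 sample. With 1 sample left out, 5 to 6 were called, *Hoxc6* being lost without mutant replicate 5 of E10.0 or mutant replicate 1 of E10.5. With the replicate number as a block, all 6 were called, also in a fit of the mutants alone that was added after seeing the data, and the block changed no other HoxC call. Over stage in wild type, where none was called, fitting the groups apart gave 3, replicates 1 to 3 gave 3, DESeq2 gave 1 and leaving out 1 sample gave 0 to 1. Between genotypes at E10.5, fitting apart gave 1 and leaving out 1 sample 0 to 1. The cause was not tested.

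Signs turned only for changes near 0. At E10.0 that of *Hoxc5* was 0.047 with the replicate block and 0.10 with replicates 1 to 3. The interaction of *Hoxc6* was -0.0079 with RLE factors, -0.013 without the filter, -0.0069 in DESeq2, -0.022 with the block and -0.10 with replicates 1 to 3. Leaving out 1 sample gave -0.070 to 0.13 for *Hoxc4*, -0.16 to 0.062 for *Hoxc5*, -0.080 to 0.29 for *Hoxc8* and -0.10 to 0.25 for *Hoxc9* at E10.0, -0.20 to 0.030 for *Hoxc6* at E10.5 and -0.11 to 0.14 for its interaction.

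Over all genes, 819 were called between genotypes at E10.0, against 1961 with the block, 2003 with replicates 1 to 3 and 256 to 1062 with 1 sample left out. At E10.5, 462 stood against 280 with the block and 282 to 453. Over stage in wild type, 1256 stood against 1989 fitted apart, 1870 with replicates 1 to 3 and 484 to 1375. For the interaction, 23 stood against 87 in DESeq2, 39 without the filter, 6 with replicates 1 to 3 and 7 to 35. Depth limits *Hoxc10*, *Hoxc11* and *Hoxc12*, which were below the filter.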
